A study of Mus musculus with 12 samples.

Results

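This comparison is between naive mouse embryonic stem cells of Pcbp1 knockout clones and naive control cells of the same line. It uses 6 of the 12 libraries of the series, those whose labels give the naive condition, with every gene in the count table. All cells were of E14 Tg2a, a male mouse embryonic stem cell line. The knockout group (KO) held 3 independent Pcbp1 knockout clones, and the control group (WT in the sample labels, Scr in the series text) held 3 independent clones, with 1 library per clone. Both groups were grown in serum-free N2B27 medium with the cytokine LIF, the MEK inhibitor PD0325901 (1 uM) and the GSK3 inhibitor CHIR99021 (3 uM), after adaptation over passages. The other 6 libraries are from KO and WT clones moved for 48 h onto fibronectin with activin A, bFGF and serum replacement (KOSR), which turns naive cells into epiblast-like cells (EpiLCs). The sample titles give only replicate numbers, and the clones are taken as independent. A p-value here is set against the spread within groups, pooled over all 12 libraries with no term for clone. The naive and EpiLC libraries pair by number, so that spread does not rest on 12 independent clones.

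PCBP1 is a KH-domain protein that binds cytosine-rich stretches of RNA and of single-stranded DNA. It is known to act on splicing, mRNA stability and translation, and as a chaperone that delivers iron to other proteins. Naive embryonic stem cells resemble the preimplantation epiblast, and inhibition of MEK and GSK3 keeps them in that state by blocking ERK signals and by stabilising beta-catenin.

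The naive libraries held 31330742 to 38269109 counts each. Polyadenylated RNA was measured, and a level is given as CPM, a gene's count scaled to the size of its library with TMM factors, per library in the order of clones 1, 2 and 3. Of 55487 genes in the table, 18134 passed the filter on low counts and were tested. Naive markers were high in both groups: Tfcp2l1 averaged 1675 CPM in WT and 1632 CPM in KO, and Nanog 820.4 and 742 CPM. The fibroblast marker Dcn was at most 0.032 CPM in any naive library. Another such marker, Col1a1, was called higher in KO, as described below. In a principal component analysis of the naive libraries alone, the leading component (53.9% of variance) separated KO from WT.

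Some clones also differed over whole chromosome segments, measured as the median over windows of 50 neighbouring genes of the log2 deviation from the naive libraries' median. On chromosome 14, WT clone 2 had medians of -0.77 to -0.95 from position 47367751 to 79635196, and in the next window, from 73362226 to 118925460, WT clone 2 was at -0.34 and KO clone 2 at 0.32. KO clone 1 lay up to 0.31 above on chromosome 17 from 28896392 to 35128855, KO clone 2 up to 0.48 above on chromosome 17 from 36255645 to 85090241, and KO clone 3 up to 0.35 above on chromosome 19 from 10570478 to 61140840. The 6 Y-linked genes used had medians of -0.79 in KO clone 1, -2.10 in KO clone 2 and 0.30 in WT clone 2. All these windows together held 1224 tested genes, and values without the shifted clone are given below for the genes described that lie there, Spry2 apart. The part of the segments in each result was otherwise not tested.

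Pcbp1 itself (ENSMUSG00000051695.6, GRCm38 chromosome 6, 86524492 to 86526321, minus strand) was measured at 475, 418 and 474 CPM in WT and 295, 302 and 303 CPM in KO. Every KO clone was below every WT clone, with a log2 change of -0.60 ± 0.111 (SE, n = 3 per group, edgeR adjusted p = 0.00599). A transcript remained in all 3 KO clones, and RNA counts do not show the amount of protein. Of its KH-domain relatives, the neuronal splicing regulator Nova2 rose by 0.71 (17.8, 18.6 and 16.4 CPM in WT, 28.4, 28.7 and 29.1 CPM in KO, adjusted p = 0.00937), a call lost without WT clone 3 (0.0562). Pcbp4 fell (-0.49, adjusted p = 0.0199), a call lost without WT clone 3 (0.0555) or KO clone 1 (0.0750). The closest paralog, Pcbp2, was at 532, 606 and 567 CPM in WT and 555, 574 and 538 CPM in KO (log2 difference -0.03, adjusted p = 0.850), and Hnrnpk at 1069 and 1010.1 CPM on average (adjusted p = 0.505). No member of the list of other hnRNP proteins, RNA-binding proteins of the nucleus, passed the edgeR test (0 of 27, with 4 at an unadjusted p under 0.05, 0 by limma-voom and 1 by DESeq2).

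The 4 genes with the smallest adjusted p of all genes tested were Got1 and Galk1, which were lower in KO, and Pros1 and Magea4, which were higher. Because PCBP1 is known to bind C-rich sequence, the 250 bases before the start of each are shown, 5′ to 3′ on the gene's strand, with every run of 4 or more C or 4 or more G in capitals (a G run is a C run on the other strand). The sequences are from RefSeq on GRCm38.p6, at chr19:43524606-43524855 (minus strand) for Got1, chr11:116012720-116012969 (minus) for Galk1, chr16:62854057-62854306 (plus) for Pros1 and chrX:72221767-72222016 (plus) for Magea4.
Got1: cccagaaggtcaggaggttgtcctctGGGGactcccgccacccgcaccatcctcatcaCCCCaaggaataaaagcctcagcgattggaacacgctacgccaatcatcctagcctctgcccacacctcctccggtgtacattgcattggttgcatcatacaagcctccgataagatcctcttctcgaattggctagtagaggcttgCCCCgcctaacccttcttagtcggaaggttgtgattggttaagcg
Galk1: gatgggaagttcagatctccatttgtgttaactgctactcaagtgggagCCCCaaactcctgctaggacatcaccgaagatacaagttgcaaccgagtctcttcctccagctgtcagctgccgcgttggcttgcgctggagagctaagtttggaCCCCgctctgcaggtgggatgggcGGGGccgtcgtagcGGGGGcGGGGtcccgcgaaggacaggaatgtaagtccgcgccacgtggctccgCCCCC
Pros1: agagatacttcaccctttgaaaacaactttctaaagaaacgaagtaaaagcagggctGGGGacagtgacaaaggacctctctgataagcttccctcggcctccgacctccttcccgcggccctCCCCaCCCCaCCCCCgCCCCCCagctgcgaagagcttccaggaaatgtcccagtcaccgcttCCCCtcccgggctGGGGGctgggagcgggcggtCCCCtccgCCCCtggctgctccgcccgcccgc
Magea4: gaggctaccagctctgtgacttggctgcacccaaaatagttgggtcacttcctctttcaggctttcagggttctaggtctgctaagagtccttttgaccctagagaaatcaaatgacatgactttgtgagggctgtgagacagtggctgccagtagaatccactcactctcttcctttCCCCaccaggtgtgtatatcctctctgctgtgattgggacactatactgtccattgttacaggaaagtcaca

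These windows held 3 such runs at Got1, 6 at Galk1, 9 at Pros1 and 1 at Magea4. Of 32851 promoters of the same length, 83.1% held at least 1 run, and the median was 2. At least as many runs as at Got1 were found in 47.1% of them, as at Galk1 in 16.01%, as at Pros1 in 4.04% and as at Magea4 in 83.1%. The number of runs before the start therefore did not order these 4 genes by the direction of their difference. In the longest annotated transcript, the letters CCCC occurred 7.77 times per kb in Got1, 5.69 in Galk1, 1.21 in Pros1 and 3.16 in Magea4. By that measure both lower genes lay above both higher genes, in 4 genes only. A match is a description of the letters and does not show that PCBP1 binds there.

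In all, 1673 of 18134 genes tested (9.23%) were called, at an adjusted p under 0.05 by the quasi-likelihood test of edgeR. Of these, 775 (4.27% of genes tested) were higher in KO and 898 (4.95%) were lower. At 2-fold or more, 552 (3.04%) were higher and 497 (2.74%) lower. The count was 1104 without WT clone 1, 852 without WT clone 3 and 708 without KO clone 1, and 609 genes (270 higher, 339 lower) were called in all 6 fits that left out 1 naive library. KO and WT levels did not overlap for 5520 genes tested (30.4%), among them 1657 of those called. Absence of overlap was also a condition for naming genes by smallest adjusted p, largest change or largest fold. For a called gene it is therefore no added evidence. Outside the shifted chromosome segments, 1599 genes were called (726 higher, 873 lower). With only the 6 naive libraries in the fit, 1473 genes were called.

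**Figure D1:**
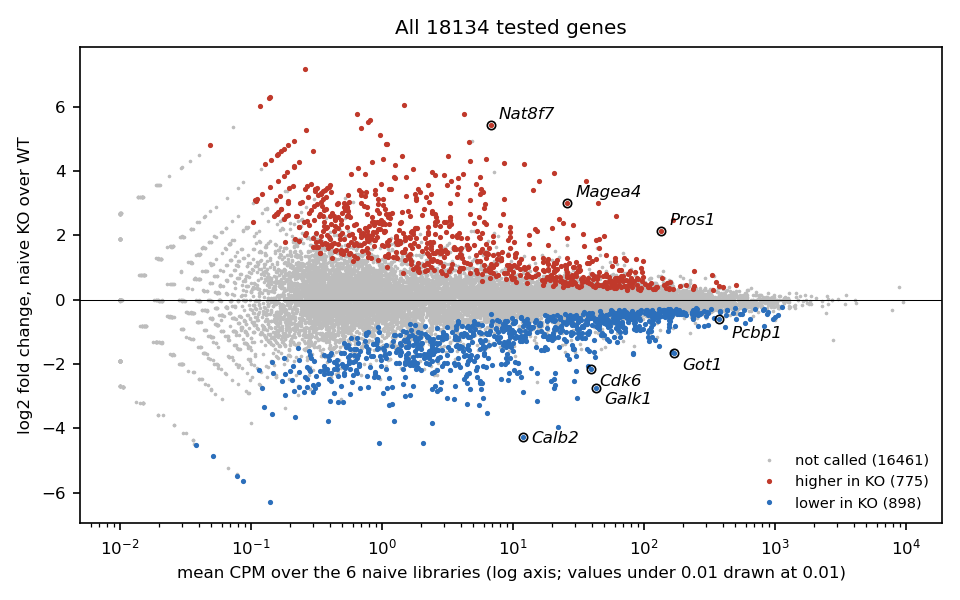
Log2 fold change of naive KO over WT against the mean CPM of the 6 naive libraries (log axis) for all 18134 tested genes. Red points are the 775 genes called higher in KO, blue points the 898 called lower, grey points those not called, and circles mark genes described in the text. Higher calls lie mostly at low mean levels, while lower calls reach from low to high levels.

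Median level was 1.21 CPM in WT and 4.498 CPM in KO for the genes called higher, and 14.4 CPM in WT and 6.26 CPM in KO for those called lower, against 9.67 and 9.55 CPM for all genes tested. The direction of a call fixes part of these levels. A mean under 1 CPM was found for 47.4% of the higher genes in WT and 21.8% in KO, for 10.1% of the lower genes in WT and 24.7% in KO, and for 27.9% and 27.3% of all. Protein-coding genes made up 73.5% of the higher genes, 97.8% of the lower genes and 81.2% of all. In the longest transcript of each gene, the median GC content was 46.8% for the higher genes, 53.8% for the lower genes and 49.6% for all, and the median count of CCCC per kb was 3.50, 5.87 and 4.23. The count of CCCC was not adjusted for GC content, gene type or level, in which the sets also differed. These medians are descriptions over genes, which are not independent replicates. By chromosome, X had 60 genes higher and 34 lower of 678 tested, and chromosome 7 had 64 higher and 117 lower of 1463. Chromosome 11 had 32 higher and 112 lower of 1395. Chromosome 14, part of which was shifted in WT clone 2, had 53 higher and 11 lower of 611. The window with the most calls, chromosome 7 from 43463151 to 45523632, had 14 of 50 genes called. Its median deviations were 0.17, 0.07 and 0.11 in WT and -0.14, -0.08 and -0.12 in KO.

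Got1 (ENSMUSG00000025190.13, chromosome 19, 43499752 to 43524605) encodes the cytosolic aspartate aminotransferase, which links aspartate and glutamate to the malate-aspartate shuttle. It was at 246, 283 and 246 CPM in WT and 77.7, 85.2 and 81.0 CPM in KO, and fell by 1.67 ± 0.0873 on the log2 scale (adjusted p = 2.08e-06). The KO clones lay close together and far below every WT clone. The gene lies in the segment that was high in KO clone 3, and without that clone the log2 change was -1.70 (adjusted p = 3.47e-05).

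Galk1 (ENSMUSG00000020766.4, chromosome 11, 116008457 to 116012719) encodes galactokinase, the first committed enzyme of galactose use. It was at 86.8, 75.2 and 62.5 CPM in WT and 12.5, 11.5 and 9.78 CPM in KO. The log2 change was -2.73 ± 0.173 (adjusted p = 6.64e-06), and no KO clone came near the WT range.

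The other lower genes with the smallest adjusted p have varied roles. Pigt, a subunit of the transamidase that attaches GPI anchors, was at 78.4, 69.6 and 80.9 CPM in WT and 32.9, 32.9 and 28.8 in KO (-1.28 ± 0.101, adjusted p = 4.51e-05). Hipk2, a nuclear kinase, was at 15.1, 14.4 and 13.6 CPM in WT and 3.42, 3.45 and 4.31 CPM in KO (-1.95 ± 0.155). Itpr3, an IP3 receptor that releases calcium from the endoplasmic reticulum, was at 118, 120.1 and 139 CPM in WT and 39.6, 47.5 and 29.6 CPM in KO (-1.69). All 3 had KO levels well apart from the WT levels. Mical1, which oxidises actin filaments, was at 44.2, 41.4 and 43.1 CPM in WT and 16.2, 15.4 and 12.8 CPM in KO (-1.53), and Bcam, a laminin-binding receptor, at 144, 109.9 and 126 CPM in WT and 32.9, 36.2 and 51.1 CPM in KO (-1.66). Ric8a, a chaperone of G-protein alpha subunits, was at 80.8, 87.7 and 77.7 CPM in WT and 37.9, 38.9 and 34.1 CPM in KO (-1.15). Napa, a SNAP protein needed to recycle SNARE complexes, was at 150.4, 138 and 140.0 CPM in WT and 74.5, 70.7 and 69.3 CPM in KO (-0.997).

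Among genes with the largest relative falls, clones of 1 group could differ several-fold from each other without the groups overlapping. Nphs1, which encodes nephrin, was at 19.9, 9.45 and 34.4 CPM in WT and 3.21, 2.17 and 3.41 CPM in KO (-2.86 ± 0.369, adjusted p = 7.06e-04). Its WT range was more than 2-fold, and its KO level was low in every clone. Tgm1, a transglutaminase, was at 58.8, 35.6 and 56.7 CPM in WT and 6.00, 6.32 and 14.1 CPM in KO (-2.51). It lies in the chromosome 14 segment that was low in WT clone 2, and without that clone the log2 change was -2.74 (adjusted p = 0.00357).

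At high levels, changes were smaller. Wdr5, the shared WD-repeat subunit of histone H3K4 methyltransferase complexes, was at 728, 704 and 774 CPM in WT and 421, 422 and 488 CPM in KO (-0.73 ± 0.0834, adjusted p = 3.69e-04). Hdgf, a chromatin-binding growth factor, was at 788, 779 and 755 CPM in WT and 503, 506 and 531 CPM in KO (-0.59). Map4, a microtubule-associated protein, was at 620.4, 628 and 633 CPM in WT and 469, 464 and 447 CPM in KO (-0.45). In all 3 the KO clones differed by less from each other than from any WT clone.

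Pros1 (ENSMUSG00000022912.8, chromosome 16, 62854307 to 62929346) encodes protein S, a ligand of the TAM receptor kinases and a cofactor in the control of clotting. It was at 49.1, 45.6 and 57.8 CPM in WT and 216, 248 and 204 CPM in KO, and rose by 2.13 ± 0.138 (adjusted p = 6.64e-06). Every KO clone was above every WT clone.

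Col18a1, which encodes the basement membrane collagen that yields endostatin, was at 57.8, 45.3 and 52.7 CPM in WT and 134, 116 and 121 CPM in KO (1.25 ± 0.118, adjusted p = 1.26e-04). Pard3, a polarity scaffold of cell junctions, was at 53.4, 63.1 and 63.1 CPM in WT and 144, 115 and 154 CPM in KO (1.20). Efhc2, an EF-hand gene on the X chromosome, was at 5.57, 13.8 and 10.5 CPM in WT and 90.1, 88.0 and 62.3 CPM in KO (3.01 ± 0.263). The KO clones were above the WT clones in each. Folh1, a carboxypeptidase that acts on folate and on N-acetylaspartylglutamate, was at 1.06, 0.577 and 0.744 CPM in WT and 10.5, 9.97 and 8.67 CPM in KO (3.61), so its rise started from about 1 CPM or less.

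**Figure D2:**
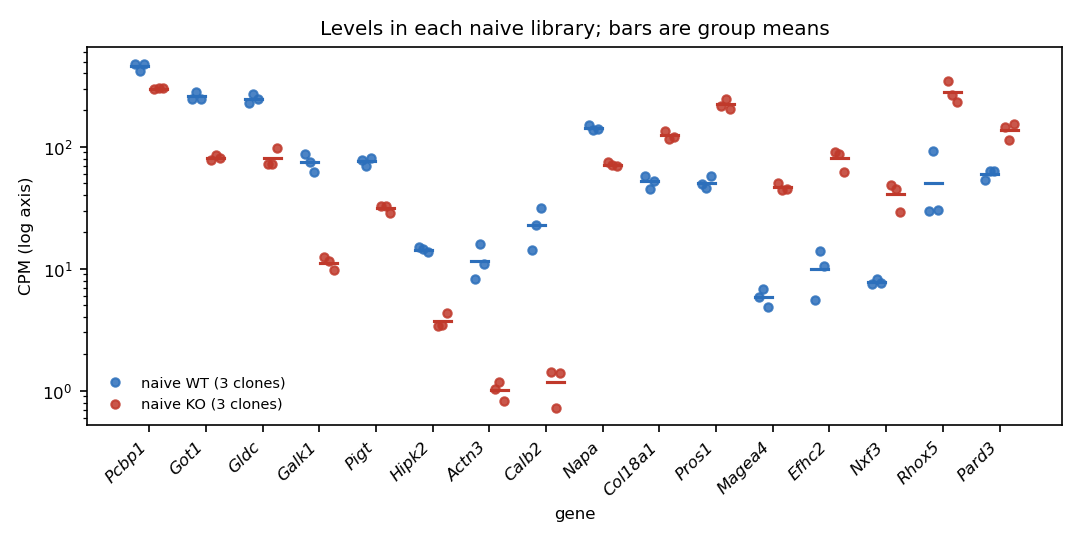
CPM (log axis) of 16 genes in each naive library, blue for WT and red for KO, with 1 point per clone and a bar at the group mean. The 9 genes on the left, from Pcbp1 to Napa, are lower in every KO clone than in every WT clone, and the 7 on the right, from Col18a1 to Pard3, are higher in every KO clone.

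Pcbp1 lies on chromosome 6, and 38 tested genes lie within 1 Mb of it. Of these, 9 were called, 6 higher and 3 lower, Pcbp1 among the latter, against 9.23% of all genes. The higher ones included members of the Nat8 family, N-acetyltransferases that are usually most abundant in kidney and liver. Nat8f7 was at 0.288, 0.224 and 0.398 CPM in WT and 15.7, 19.3 and 4.83 CPM in KO (5.42 ± 0.675, adjusted p = 0.00115), and Nat8f3 at 0.577, 0.577 and 1.41 CPM in WT and 17.1, 27.2 and 5.17 CPM in KO (4.25 ± 0.623). In both, KO clone 3 was several-fold below the other KO clones and above every WT clone. Nat8f4, which lies between these genes and Pcbp1, was at 7.08, 7.63 and 6.51 CPM in WT and 15.4, 16.1 and 7.84 CPM in KO and did not pass (adjusted p = 0.0519), with KO clone 3 again the lowest of the KO clones. Reads shared between these paralogs may be missing or assigned to either copy, since the counting options are not shown in the file. On the other side of Pcbp1, the anthrax toxin receptor gene Antxr1 was at 5.25, 12.1 and 9.85 CPM in WT and 1.16, 1.45 and 2.49 CPM in KO (-2.41 ± 0.390, adjusted p = 0.00279). Anxa4, an annexin, fell by less (-0.58, adjusted p = 0.0155), a call lost without KO clone 1 (0.0691) or KO clone 2 (0.0528).

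**Figure D3:**
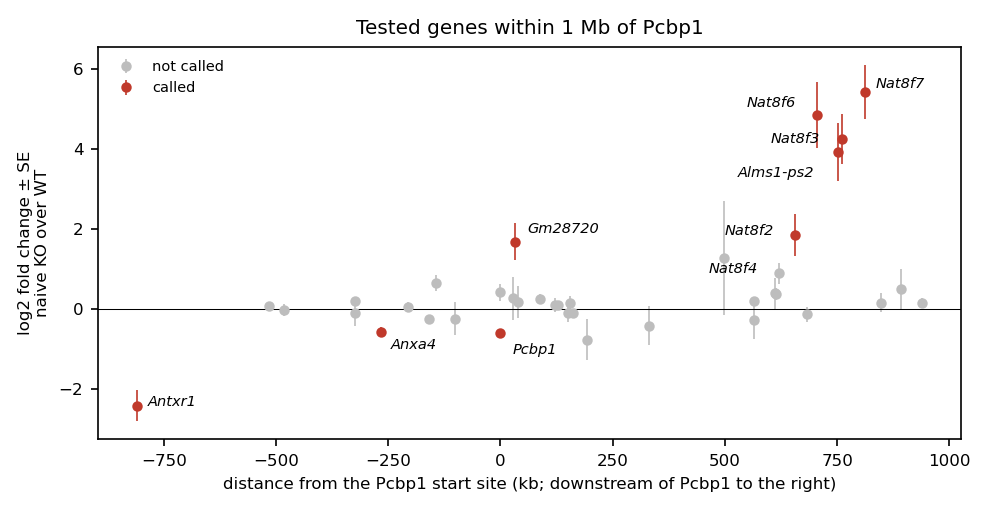
Log2 fold change of naive KO over WT, with its standard error, for the 38 tested genes within 1 Mb of Pcbp1, against the distance of the gene's start from the Pcbp1 start in kb, downstream of Pcbp1 to the right. Red points are the 9 called genes and grey points the others; the Nat8f genes lie on the downstream side, with uncalled genes between them and Pcbp1.

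Gene lists were set beside these results. The number of members tested and called is given for most, and the median log2 fold change of the tested members for many. That median was 0.0 over all genes tested. Counts in brackets after a list are those without WT clones 1, 2 and 3 and then without KO clones 1, 2 and 3. The lists are descriptions. They were chosen with earlier results of these data known, which can raise a list's share. The shares over all genes tested, 4.27% called higher and 4.95% called lower, are given for scale and make no test of a list.

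Among carbohydrate enzymes, lower members were in galactose use and the oxidative pentose phosphate branch. Of the galactose and hexosamine list, 4 of 19 were lower [3, 3, 3, 2, 4 and 3] and 1 higher [0, 0, 0, 0, 0 and 0] (median -0.12). After Galk1, Gne, which starts sialic acid synthesis, was at 12.8, 16.2 and 15.8 CPM in WT and 7.55, 8.47 and 6.98 CPM in KO (-0.96, adjusted p = 0.00310). Galt, the uridylyltransferase of the galactose route, which was chosen after its values were seen, fell by 0.44 (adjusted p = 0.0463), a call lost when any 1 naive library was left out (adjusted p 0.0531 to 0.104).

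Of the pentose phosphate and NADPH list, 4 of 15 were lower [4, 4, 3, 4, 6 and 4] and 1 was higher [1, 1, 1, 1, 1 and 1] (median -0.27). The enzymes that make NADPH from glucose 6-phosphate were lower together. G6pdx, its dehydrogenase, was at 107, 85.3 and 103 CPM in WT and 63.4, 64.6 and 67.3 CPM in KO (-0.59 ± 0.10009, adjusted p = 0.00350). Pgd, the phosphogluconate dehydrogenase, was at 443, 385 and 359 CPM in WT and 211, 205 and 271 CPM in KO (-0.79), and H6pd, the enzyme of the endoplasmic reticulum, at 27.8, 39.4 and 36.4 CPM in WT and 14.5, 17.4 and 12.7 CPM in KO (-1.21). The groups did not overlap in any of the 3. In the opposite direction, Tktl2, a transketolase-like gene, was at 1.57, 2.92 and 2.42 CPM in WT and 17.4, 15.5 and 10.5 CPM in KO (2.65). The glycolysis list had 0 of 28 called by edgeR (median -0.15), with 8 at an unadjusted p under 0.05, 2 by limma-voom and 5 by DESeq2.

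Lipid synthesis genes were lower in part. Of the cholesterol and SREBP list, 8 of 30 were lower [7, 4, 6, 2, 7 and 6] and the others did not pass (median -0.30). Srebf1, a transcription factor of lipid synthesis, was at 187, 201 and 186 CPM in WT and 128, 123 and 118 CPM in KO (-0.64 ± 0.0927, adjusted p = 0.00146). Of the fatty acid list, 5 of 31 were lower [3, 3, 2, 2, 4 and 5] and 1 was higher [0, 0, 1, 0, 0 and 1] (median -0.02). Both leading members are desaturases. Fads2 was at 172, 165 and 145 CPM in WT and 57.2, 94.1 and 62.7 CPM in KO (-1.17 ± 0.178), and Scd1 at 484, 587 and 523 CPM in WT and 316, 355 and 219.5 CPM in KO (-0.84). The groups did not overlap in either. Scd1 lies in the chromosome 19 segment of KO clone 3, without which its log2 change was -0.70 (adjusted p = 0.00210).

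In amino acid metabolism, most members of each list did not pass. Of the list for serine, glycine and folate one-carbon units, 5 of 22 were lower [4, 2, 3, 2, 4 and 4] (median -0.22). Gldc, the decarboxylase of the glycine cleavage system, was at 227, 269 and 246 CPM in WT and 71.7, 72.2 and 97.6 CPM in KO (-1.62 ± 0.135, adjusted p = 7.01e-05), and at -1.81 (adjusted p = 3.47e-05) without KO clone 3, whose chromosome 19 segment holds it. In the list of aspartate, glutamate, proline and arginine enzymes, 2 of 28 were lower [3, 2, 2, 2, 2 and 2], Got1 first, and Abat, the GABA transaminase, was higher (2.21, 2.12 and 2.76 CPM in WT and 8.23, 9.42 and 5.66 CPM in KO, 1.71). Bckdk, the kinase that restrains branched-chain amino acid breakdown, was lower (78.6, 85.2 and 81.8 CPM in WT and 59.7, 56.9 and 55.2 CPM in KO, -0.52). Targets of ATF4, a factor of the amino acid response, had 2 of 28 lower [4, 0, 0, 0, 2 and 1] with a median of -0.43. Cytosolic aminoacyl-tRNA synthetases had 0 of 20 called by edgeR (median -0.20), with 5 at an unadjusted p under 0.05, 0 by limma-voom and 3 by DESeq2. Ribosomal proteins had 0 of 76 (median -0.04), with 2 at an unadjusted p under 0.05, 0 by limma-voom and 1 by DESeq2.

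In mitochondrial energy metabolism, 3 of 20 members of the TCA cycle list were lower [2, 2, 2, 1, 3 and 2] and 1 was higher [0, 0, 0, 0, 0 and 1]. Sdhb, the iron-sulfur subunit of succinate dehydrogenase, was at 165, 187 and 164 CPM in WT and 110.3, 134 and 115 CPM in KO (-0.52 ± 0.0979, adjusted p = 0.00631). Nuclear genes of oxidative phosphorylation had 0 of 52 called by edgeR (median -0.07), with 4 at an unadjusted p under 0.05, 0 by limma-voom and 2 by DESeq2. Of the genes for iron uptake, storage and its control, which bear on the known iron chaperone role of PCBP1, 1 of 29 was higher [1, 2, 1, 1, 1 and 2] and 2 were lower [0, 0, 0, 0, 1 and 1]. Heph, the copper-dependent ferroxidase hephaestin on the X chromosome, was at 1.47, 3.53 and 1.70 CPM in WT and 12.1, 7.94 and 8.34 CPM in KO (2.08 ± 0.322, adjusted p = 0.00217).

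The called members of the NODAL, BMP, Hedgehog and retinoic acid lists were lower in KO. Of the NODAL feedback and target genes, 3 of 10 were lower [2, 2, 2, 2, 2 and 3] (median -0.65). Lefty2, a secreted NODAL antagonist, was at 92.6, 22.1 and 51.4 CPM in WT and 11.6, 4.76 and 3.45 CPM in KO (-3.07 ± 0.503, adjusted p = 0.00303). Its WT clones spread widely, and the highest KO clone stayed below the lowest WT clone. The list of NODAL ligands, receptors and cofactors had 2 of 17 lower [1, 2, 1, 1, 1 and 2] and the others did not pass (median -0.13). Of the lower ones, Foxh1, the DNA-binding partner of SMAD2 and SMAD3 on NODAL targets, was at 44.3, 40.4 and 47.3 CPM in WT and 19.8, 16.97 and 23.1 CPM in KO (-1.14 ± 0.140, adjusted p = 4.99e-04). Nodal itself was at 91.0, 76.8 and 78.1 CPM in WT and 68.0, 63.2 and 64.8 CPM in KO (adjusted p = 0.202).

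Of the BMP pathway and Id genes, 3 of 18 were lower [3, 3, 3, 3, 3 and 3] (median -0.14). These were Smad6, an inhibitory SMAD (8.81, 9.36 and 6.3995 CPM in WT, 3.21, 3.34 and 3.29 CPM in KO, -1.32), and the helix-loop-helix inhibitors Id2 (5.19, 15.6 and 9.00 CPM in WT and 1.57, 0.919 and 1.85 CPM in KO, -2.78) and Id3 (2.15 and 0.545 CPM on average, -1.97). All 3 are genes that BMP signals are known to induce. Members of the list ranged from -2.78 to 1.60, and the activity of the pathway was not tested. Of the Hedgehog list, 4 of 12 were lower [4, 4, 3, 3, 4 and 4] (median -0.46). Smo, the transducing receptor, was at 15.2, 18.5 and 16.8 CPM in WT and 6.09, 7.05 and 9.84 CPM in KO (-1.13) and Gli2, a transcription factor of the pathway, at 157, 121 and 162 CPM in WT and 89.3, 92.4 and 79.9 CPM in KO (-0.75). In both, every KO clone was below every WT clone. Of the retinoic acid list, 3 of 17 were lower [2, 3, 3, 3, 3 and 3] (median -0.36), with Rxra, the common partner of nuclear receptors, at 27.8, 31.0 and 24.8 CPM in WT and 10.6, 9.33 and 17.96 CPM in KO (-1.14).

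The called members of the FGF and ERK list were higher in KO. Of their list, 4 of 25 were higher [1, 3, 2, 1, 2 and 2] and the others did not pass (median 0.15). Dusp6, the ERK phosphatase that ERK activity is known to induce, was at 3.59, 6.86 and 3.77 CPM in WT and 8.80, 10.8 and 8.95 CPM in KO (1.01 ± 0.198, adjusted p = 0.00840), low in both groups. Spry2 (0.87) lies in the chromosome 14 window where WT clone 2 was low and KO clone 2 high. Its call was lost without WT clone 1 (0.0531) or KO clone 1 (0.0599). The calls of Etv1 and Etv5 were lost when any 1 naive library was left out. In the WNT list 1 of 34 was higher [1, 0, 0, 0, 2 and 1] and 3 were lower [4, 4, 2, 1, 3 and 4], with the receptor Fzd4 at 8.30, 7.27 and 8.02 CPM in WT and 3.18, 3.04 and 3.72 CPM in KO (-1.25). In the Hippo list 1 of 19 was higher [1, 1, 1, 1, 1 and 1] and 2 were lower [2, 2, 1, 2, 2 and 2] (median -0.08). The angiomotins parted: Amotl1 was higher (66.0, 51.3 and 66.5 CPM in WT and 115, 107 and 111 CPM in KO, 0.86) and Amot lower (2.47, 1.03 and 2.34 CPM in WT and 0.624, 0.474 and 0.79974 CPM in KO, -1.62). The LIF and STAT3 list had 0 of 17 called by edgeR (median -0.02), with 1 at an unadjusted p under 0.05, 0 by limma-voom and 0 by DESeq2.

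Among junction and integrin genes, lower members outnumbered higher ones. Of the tight junction, desmosome and keratin list, 6 of 35 were lower [6, 4, 3, 1, 3 and 14] and 1 higher [0, 1, 0, 0, 1 and 1] (median -0.52). Cgn, which encodes cingulin of tight junctions, was at 2.95, 3.20 and 2.87 CPM in WT and 0.594, 0.613 and 1.54 CPM in KO (-1.72). Cdh1, E-cadherin, the main adhesion molecule of these cells, was at 967, 1079.7 and 1089.5 CPM in WT and 484, 513 and 795 CPM in KO (-0.81 ± 0.179, adjusted p = 0.0152), a call lost without WT clone 3 (0.0510), KO clone 1 (0.0674) or KO clone 2 (0.0537). Its level in KO clone 3 lay between those of the other KO clones and WT. Of the integrin list, 4 of 28 were lower [2, 2, 1, 1, 2 and 5] and 2 higher [0, 3, 0, 0, 0 and 1] (median -0.34), with Itga5, the alpha subunit of the fibronectin receptor, at 45.3, 70.5 and 72.4 CPM in WT and 20.4, 19.7 and 20.6 CPM in KO (-1.63 ± 0.161, adjusted p = 1.74e-04).

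Semaphorin, plexin, netrin and slit genes had 7 of 38 lower [2, 5, 1, 1, 3 and 4] and 1 higher [1, 1, 1, 1, 2 and 1] (median -0.22). Sema4d, a ligand of plexin B receptors, was at 48.9, 44.9 and 58.4 CPM in WT and 25.3, 22.6 and 28.9 CPM in KO (-0.99). Among matrix genes, called members went in both directions. Of the collagen list, 5 of 34 were higher [2, 4, 2, 2, 4 and 4] and 2 lower [1, 2, 2, 1, 2 and 3] (median -0.01), and Col2a1 (2.66, 2.47 and 3.58 CPM in WT and 10.2, 9.25 and 6.64 CPM in KO, 1.58), Col5a2 (3.75, 3.85 and 4.12 CPM in WT and 11.8, 7.83 and 10.7 CPM in KO, 1.37) and, of the basement membrane, Col4a1 (1.89, 1.57 and 2.10 CPM in WT and 3.86, 4.74 and 7.91 CPM in KO, 1.56) rose from low levels. Of the fibroblast and feeder markers, 1 of 11 was higher [0, 1, 0, 0, 0 and 1] and 1 lower [1, 1, 1, 1, 1 and 2]. The higher one, Col1a1, lost its call without WT clone 1 (0.0657), WT clone 3 (0.105), KO clone 1 (0.0901) or KO clone 2 (0.0898). The summed level of these markers was 3303 to 3654 CPM in WT and 3689 to 4116 CPM in KO. These ranges did not overlap. Most of the sum came from fibronectin (Fn1, 3344 CPM on average in WT and 3681 CPM in KO, a log2 difference of 0.14, adjusted p = 0.592), and the part of other cells in the matrix values was not tested.

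In the cytoskeleton, 6 of 33 sarcomere and alpha-actinin genes were lower [4, 4, 5, 3, 6 and 9] and 2 higher [1, 1, 1, 1, 2 and 2] (median -0.26). Actn3, an alpha-actinin known from fast muscle fibres, was at 8.23, 15.8 and 10.9 CPM in WT and 1.04, 1.17 and 0.830 CPM in KO (-3.52 ± 0.270, adjusted p = 4.11e-05). Csrp1, a LIM protein of actin bundles, was at 147, 155 and 138 CPM in WT and 104, 102 and 101 CPM in KO (-0.52), a far smaller change at a higher level. Of the list of EF-hand calcium-binding proteins, 7 of 24 were lower [5, 7, 2, 2, 6 and 5] and the others did not pass (median -0.44). Its members ranged from -4.27 to 0.59. The EF-hand gene Efhc2, which rose as described above, is not in this list. Calb2, calretinin, was at 14.2, 22.8 and 31.4 CPM in WT and 1.43, 0.724 and 1.38 CPM in KO (-4.27 ± 0.384), with every KO clone far below every WT clone.

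Adhesion and orphan G-protein-coupled receptors had 2 of 28 higher [3, 2, 1, 1, 2 and 2] and 4 lower [4, 4, 4, 4, 4 and 5] (median -0.33). Adgrl2, a latrophilin, was at 10.9, 8.30 and 11.4 CPM in WT and 2.50, 1.504 and 3.23 CPM in KO (-2.09), and the orphan receptor Gprc5c at 6.44, 6.92 and 18.6 CPM in WT and 0.683, 0.529 and 2.61 CPM in KO (-3.07). Among ion channels, 4 of 46 were higher [3, 1, 1, 1, 2 and 3] and 6 lower [6, 5, 4, 3, 3 and 8]. The potassium leak channel Kcnk1 fell (4.93, 2.53 and 7.12 CPM in WT and 0.802, 0.474 and 1.23 CPM in KO, -2.55). Of the synaptic genes, 4 of 42 were higher [1, 1, 0, 0, 1 and 3] and 3 lower [3, 1, 1, 1, 1 and 3] (median 0.07). The higher ones included Rims1, a scaffold of the presynaptic active zone, at 11.1, 21.6 and 12.5 CPM in WT and 33.4, 34.1 and 26.8 CPM in KO (1.06), a call lost without WT clone 1 (0.111), WT clone 3 (0.118), KO clone 1 (0.106) or KO clone 2 (0.0848). Nlgn2, a neuroligin that organises inhibitory synapses in neurons, was at 36.6, 32.4 and 40.1 CPM in WT and 14.3, 18.8 and 11.8 CPM in KO (-1.28).

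Several genes of the interferon response and of RNA sensing were lower. Of their list, 7 of 28 were lower [6, 7, 5, 3, 5 and 8] and the others did not pass (median -0.38). Bst2, tetherin, was at 7.79, 23.6 and 9.93 CPM in WT and 2.05, 2.03 and 3.41 CPM in KO (-2.46 ± 0.361, adjusted p = 0.00154), and Ifih1, the sensor MDA5 of double-stranded RNA, at 1.79, 5.45 and 4.67 CPM in WT and 0.208, 0 and 0.338 CPM in KO. H2-K1, a class I MHC heavy chain, was at 7.69, 7.76 and 6.93 CPM in WT and 2.35, 1.84 and 2.03 CPM in KO (-1.85). It lies in the chromosome 17 segment of KO clone 1, without which its log2 change was -1.97 (adjusted p = 0.0181). All 3 were at modest levels in WT, with WT clone 1 the lowest for Bst2 and Ifih1.

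Of the p53 targets, 5 of 29 were higher [1, 2, 3, 1, 5 and 2] and the others did not pass (median 0.31). Bbc3, which encodes the apoptosis inducer PUMA, was at 18.8, 21.8 and 22.1 CPM in WT and 48.4, 37.4 and 43.9 CPM in KO (1.05 ± 0.153, adjusted p = 0.00154). Bak1, an apoptosis effector outside that list, was at 67.2, 68.8 and 74.5 CPM in WT and 41.9, 40.7 and 36.0 CPM in KO (-0.83) and moved the other way. Of the G1 regulators, 4 of 24 were lower [1, 3, 1, 2, 1 and 3] and 1 higher [0, 0, 1, 0, 0 and 0]. Cdk6, a kinase that pairs with D cyclins, was at 63.2, 62.6 and 67.7 CPM in WT and 15.0, 8.30 and 20.0 CPM in KO (-2.16 ± 0.254, adjusted p = 3.77e-04), the lead change of that list. In S phase and in G2 and M phase the lists had 2 of 28 and 2 of 25 lower [2, 2, 1, 2, 2 and 5 for the first, 2, 4, 2, 1, 2 and 4 for the second], with Ccne1, cyclin E1, at 101, 96.2 and 108 CPM in WT and 71.8, 69.3 and 70.3 CPM in KO (-0.53) and the mitotic kinase Aurka at 187, 166 and 151 CPM in WT and 112, 119.7 and 119 CPM in KO (-0.52).

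Among the 72 lists, the one with the most higher members was that of X-linked germline families, genes usually silent outside the germline. Of these, 13 of 31 were higher [10, 13, 9, 11, 11 and 11] and 1 lower [1, 1, 0, 1, 0 and 0] (median 0.70). Magea4 (ENSMUSG00000033343.1, chromosome X, 72222017 to 72222964) was at 5.86, 6.76 and 4.83 CPM in WT and 50.5, 43.8 and 44.7 CPM in KO (2.99 ± 0.183, adjusted p = 6.64e-06). Nxf3, an RNA export factor of the testis, was at 7.46, 8.27 and 7.70 CPM in WT and 48.2, 45.1 and 29.0 CPM in KO (2.38 ± 0.207). Both had tight WT levels, and the KO levels lay several-fold higher. Rhox5, a homeobox gene of Sertoli cells and placenta, was at 30.0, 92.5 and 30.1 CPM in WT and 344, 267 and 232 CPM in KO (2.47 ± 0.412, adjusted p = 0.00333), with WT clone 2 well above the other WT clones and still below every KO clone. Magea10 was at 0.128, 0.833 and 0.584 CPM in WT and 8.91, 5.99 and 6.67 CPM in KO (3.79). Reads that several Magea copies share carry the same limit as those of the Nat8 family.

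Germline genes known to be silenced by DNA methylation, some of them X-linked, had 2 of 25 higher [0, 3, 1, 0, 2 and 2] and 3 lower [2, 0, 0, 1, 1 and 1], and 0 of 19 DNA methylation and TET enzymes were called by edgeR (4 at an unadjusted p under 0.05, 0 by limma-voom and 0 by DESeq2). The list of aldo-keto reductases and steroid enzymes had 4 of 17 higher [5, 4, 4, 4, 4 and 4] and 1 lower [1, 1, 1, 1, 1 and 1] (median 0.06). Of the 4 Akr1c genes tested on chromosome 13, 3 rose, and Akr1c14 did not pass (adjusted p = 0.958). Akr1c18, which inactivates progesterone, was at 1.41, 1.44 and 0.903 CPM in WT and 15.5, 14.2 and 39.9 CPM in KO (4.21 ± 0.441, adjusted p = 2.59e-04), Akr1c13 at 0.833, 0.417 and 0.319 CPM in WT and 7.70, 6.602 and 9.14 CPM in KO (3.91) and Akr1c12 at 0.160, 0.320 and 0.106 CPM in WT and 3.39, 2.37 and 4.09 CPM in KO (4.07). They are neighbours and paralogs, so they are not independent of each other. Elsewhere in that list Akr1b3, an aldose reductase, rose (0.67) and Akr7a5 fell (-0.78).

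Of imprinted genes, 5 of 37 were higher [3, 5, 1, 2, 3 and 3] and 3 lower [3, 2, 2, 3, 2 and 2] (median 0.38). Phlda2, which restrains placental growth, was at 7.50, 3.85 and 7.54 CPM in WT and 1.34, 0.557 and 1.02 CPM in KO (-2.70 ± 0.401, adjusted p = 0.00170), and Slc22a18, its neighbour in the same imprinted domain of chromosome 7, at 2.11, 2.47 and 2.39 CPM in WT and 0.267, 0.167 and 0.0615 CPM in KO (-3.78). Both are known to be expressed from the maternal copy. Mirg, a noncoding RNA of the domain that also holds Meg3, was higher (15.95, 15.5 and 12.3 CPM in WT and 25.3, 27.4 and 27.8 CPM in KO, 0.88).

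The naive pluripotency list had 0 of 19 called by edgeR (median -0.02), with 0 at an unadjusted p under 0.05, 0 by limma-voom and 0 by DESeq2, and their summed level was 6282 to 6536 CPM in WT and 6046 to 6397 CPM in KO. The core and shared list summed to 6060 to 6570 CPM in WT and 5556 to 5976 CPM in KO, without overlap, a difference that was not tested. It had 1 of 16 higher [1, 0, 0, 0, 1 and 0] and 1 lower [0, 0, 0, 0, 0 and 0] (median 0.02). The higher one, Lin28a, an RNA-binding protein that blocks let-7 maturation, was at 32.7, 10.2 and 24.3 CPM in WT and 73.6, 33.9 and 98.9 CPM in KO (1.62), a call lost without WT clone 2 (0.0619), WT clone 3 (0.0760), KO clone 1 (0.0866) or KO clone 3 (0.0809). The lower one, Dppa5a, fell by 0.54 on the log2 scale, a call lost when any 1 naive library was left out. Of the formative and primed list, 4 of 24 were higher [1, 3, 1, 1, 3 and 3] and 1 lower [2, 1, 0, 1, 1 and 1] (median -0.05). Markers of other cell types were counted beside these. The endoderm list had 2 of 20 higher [2, 2, 2, 2, 2 and 2] and 0 lower [0, 1, 0, 0, 0 and 1]. Its median was -0.36, and its members ranged from -2.91 to 3.17, so the list as a whole was not raised. Hnf4a, 1 of the 2 higher, stayed at a low level (0.160, 0.320 and 0.212 CPM in WT and 1.10, 0.891 and 2.89 CPM in KO, 2.80). The summed level of the endoderm list was 1212 to 1437 CPM in WT and 1293 to 1723 CPM in KO. Of the mesoderm list 1 of 15 was lower [0, 0, 0, 0, 0 and 1], and of the neuroectoderm list 2 of 17 were higher [1, 1, 0, 1, 2 and 2]. Of the trophoblast list 2 of 17 were lower [2, 1, 2, 0, 1 and 2]. Summed levels in WT and KO were 258 to 317 and 285 to 308 CPM for mesoderm, 120.4 to 149 and 128 to 191 CPM for neuroectoderm and 1.63 to 7.44 and 0.615 to 2.95 CPM for markers of cells like those of the early cleavage embryo. Genes linked to RNA quality and handling summed to 512 to 549 CPM in WT and 581 to 819 CPM in KO, and the part of that difference in the results was not tested. In bulk RNA, fewer cells of a type and less RNA per cell cannot be told apart.

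**Figure D4:**
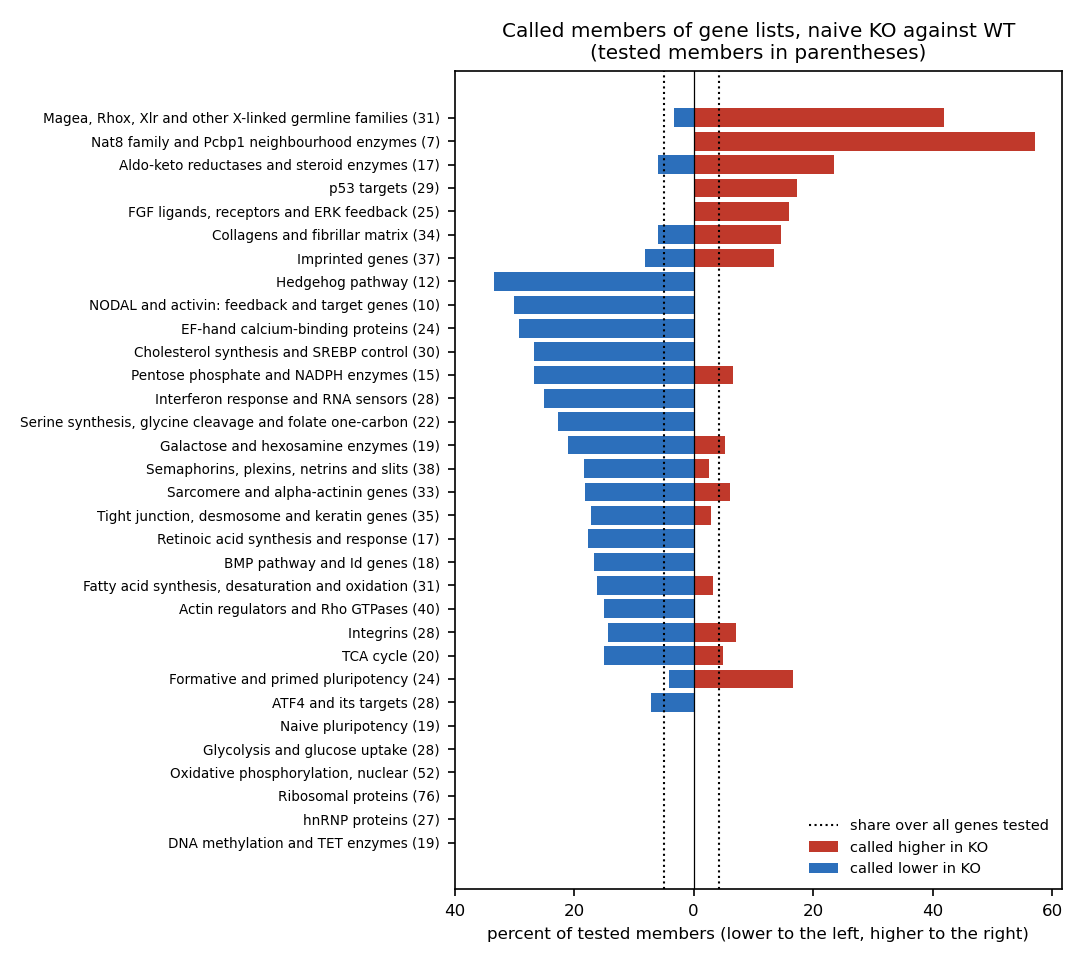
Share of tested members called higher (red, to the right) or lower (blue, to the left) in naive KO against WT for 32 gene lists, with the number of tested members in parentheses and dotted lines at the 4.27% and 4.95% of all tested genes called higher and lower. The X-linked germline and Nat8 lists reach far to the right, the Hedgehog and NODAL feedback lists to the left, and the lists at the bottom, such as naive pluripotency and ribosomal proteins, have no called member. The lists were chosen with earlier results of these data known.

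The naive difference was also set beside the difference of the same genotypes in EpiLCs. In EpiLCs, 2734 genes (15.1%) were called, 1309 higher (7.22%) and 1425 lower (7.86%), and 782 were called in both conditions in the same direction (413 higher, 369 lower), 46.7% of the naive calls and 28.6% of the EpiLC calls. Another 16 were called in opposite directions. The clones of the naive and EpiLC libraries correlated by number, so the conditions are not independent. The difference between the naive and the EpiLC effect (an interaction term) was called for 69 genes, 0.381% of those tested, and for 228 with clone as a block. Without WT clones 1, 2 and 3 the count was 27, 68 and 10, and without KO clones 1, 2 and 3 it was 18, 16 and 122.

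Of the 69 genes, 47 were also called in naive cells. Pcbp1 itself was not among the 69 (-0.60 in naive cells, -1.14 in EpiLCs, interaction adjusted p = 0.180). Its mean in EpiLCs was 598 CPM in WT and 272 CPM in KO. Got1 was lower in both conditions (-1.67 in naive cells, -1.79 in EpiLCs, interaction adjusted p = 0.740), as was Galk1 (-2.73 and -2.65, 0.927), while Pros1 and Magea4 were higher in both (2.13 and 2.72, 0.223; 2.99 and 3.27, 0.705). Genes whose effect differed included Calb2, at 2.22 CPM in EpiLC WT and 2.02 CPM in EpiLC KO (interaction -4.13 ± 0.509, adjusted p = 0.0143), and Hipk2, at 20.3 and 15.2 CPM in EpiLCs (interaction -1.52 ± 0.211, adjusted p = 0.0165). For Amot the directions were opposite: its mean was 1.94 CPM in WT and 0.632 CPM in KO in naive cells, and 8.62 and 42.2 CPM in EpiLCs (interaction -3.92 ± 0.427, adjusted p = 0.0115). These interaction calls of Calb2, Hipk2 and Amot held without each naive library in turn. Col18a1 rose in naive cells and was at 921 and 1021 CPM in EpiLCs (interaction 1.11 ± 0.165, adjusted p = 0.0194), an interaction call lost without WT clone 3 (0.0859) or KO clone 1 (0.0796).

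**Figure D5:**
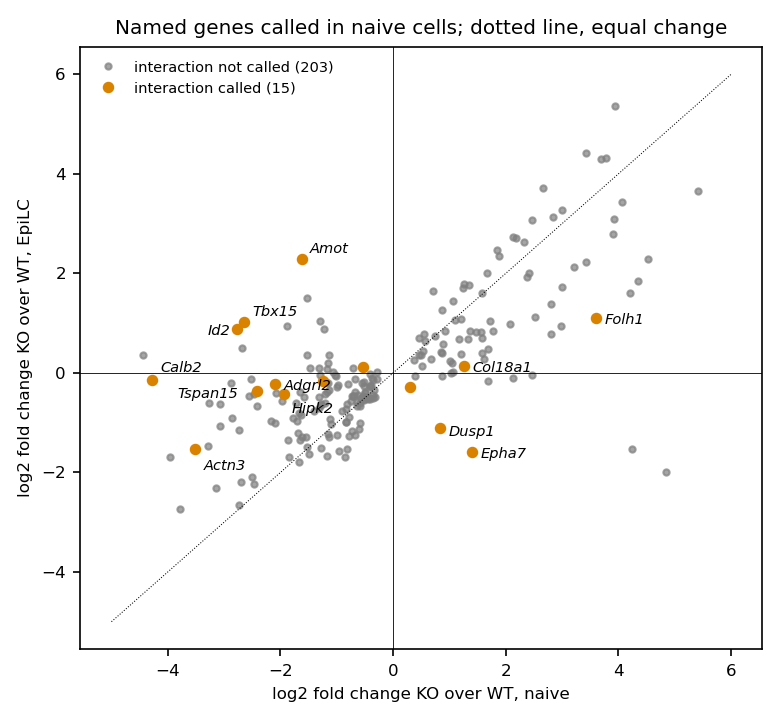
Log2 fold change of KO over WT in EpiLCs against that in naive cells for the 218 genes selected by the naming rule and called in naive cells, not all of which are described here. Orange points are the 15 whose interaction was called, grey points the other 203, and the dotted line marks equal change. Most points lie in the quadrants of equal sign, and Calb2, Amot, Tbx15, Id2, Dusp1 and Epha7 lie away from the dotted line.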

How the data were processed

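Per the file headers, the authors counted reads per gene with featureCounts 2.0.1 on GENCODE vM25, and the deposited table holds these raw counts without normalization. Per the submitters' processing notes, fastp, FastQC, STAR and DESeq2 (no versions) and the build GRCm38/mm10 were used. How strand, pairs and reads that fit several genes were treated is not given in that header, so counts of paralogs and of overlapping genes are uncertain. The summed exon length of each gene, the deposited column of another unit, was used only to describe gene sets. All sample columns were used. The 346 genes without a symbol took at most 0.0312% of the counts of a library. Totals over all 12 libraries were 27146744 to 42204511.

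Counts were scaled by TMM and fitted in edgeR 4.0.16 (R 4.3.3, glmQLFit and glmQLFTest) over all 12 libraries in 4 groups, with 8 residual degrees of freedom, after filterByExpr (minimum count 10, minimum total 15). A gene was called at a Benjamini-Hochberg adjusted p under 0.05 over 18134 genes. The SE is the size of the log2 fold change divided by the square root of F. The script was tested on simulated data. Alternatives were RLE and upper quartile scaling, no low-count filter, the 6 naive libraries alone, limma-voom (limma 3.58.1), DESeq2 1.42.0, each naive library left out, and replicate blocks. Leaving out the shifted chromosome segments was chosen after seeing the data. The members and the 72 lists were chosen with earlier results of these data known.

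Genes were named by rule: Pcbp1 and its relatives; the 12 called genes per direction with the smallest adjusted p (mean at least 5 CPM), the 10 with the largest change in CPM and the 10 with the largest fold (mean at least 10 CPM), all without overlap of the groups and called without each naive library; up to 4 called members of each list by adjusted p, and any member of a list of under 12; and called genes within 1 Mb of Pcbp1. Markers, uncalled genes and Galt were named outside it. Some genes that the rule selects are not reported here. Symbols came from GENCODE M21 names, and promoters from RefSeq on GRCm38.p6.

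Within a genotype, deviations from the group mean correlated at 0.294 to 0.400 between the naive and the EpiLC library that share a number, each highest with its own number. Numbers therefore pair the conditions, and clone was a block for the interaction. Naive WT and KO libraries of the same number correlated at -0.0892 to 0.0595, so they were not paired.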

Additional observations from a re-analysis of the deposited data

Results flagged for a closer look

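For 15 of the named genes called in naive cells, the difference between KO and WT in naive cells differed from that in EpiLCs by the interaction test of edgeR. Values below are the naive minus the EpiLC log2 fold change, with the adjusted p over all genes tested and n = 3 per group. No explanation of these differences was tested.

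In Calb2 (-4.13, 0.0143), Hipk2 (-1.52, 0.0165), Tspan15 (-2.05, 0.0394), Adgrl2 (-1.87, 0.0342) and the WNT receptor Fzd4 (-1.09, 0.0498), the fall in naive cells was larger than the difference in EpiLCs. Adgrl2, for example, averaged 10.2 CPM in naive WT and 2.41 CPM in naive KO, against 66.3 and 56.9 CPM in EpiLCs. Actn3 (-1.98, 0.0394) fell in both conditions, by more in naive cells (-3.52 against -1.53). Cyclin E1, Ccne1 (-0.64, 0.0425), was at 102 and 70.5 CPM in naive cells and at 305 and 329.6 CPM in EpiLCs.

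In Amot (-3.92, 0.0115), Tbx15 (-3.66, 0.0342) and Id2 (-3.66, 0.0498), KO was lower than WT in naive cells and had the higher mean in EpiLCs. The opposite order was seen in Epha7 (2.99, 0.0342), an ephrin receptor at 5.05 and 13.3 CPM in naive WT and KO and 6.68 and 2.20 CPM in EpiLCs, and in Dusp1 (1.94, 0.0165), an immediate-early phosphatase at 21.8 and 38.9 CPM and 55.0 and 25.6 CPM. Etv5 (0.59, 0.0399), an ERK-responsive factor, was at 301 and 372 CPM in naive cells and 536 and 439.7 CPM in EpiLCs. The naive calls of some of these end when a library is left out: Epha7 without WT clone 1 (0.0696), WT clone 2 (0.0626), WT clone 3 (0.0854), KO clone 1 (0.0753) or KO clone 3 (0.0572), Etv5 without WT clone 1 (0.0931), WT clone 2 (0.0571), WT clone 3 (0.135), KO clone 1 (0.0808), KO clone 2 (0.0636) or KO clone 3 (0.103) and Dusp1 without WT clone 1 (0.0755), KO clone 1 (0.0595) or KO clone 2 (0.0620). Folh1 (2.50, 0.0482) and Col18a1 (1.11, 0.0194) rose more in naive cells.

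The interaction calls of Calb2, Hipk2, Amot and Dusp1 held without each of the 6 naive libraries in turn. Those of Folh1 and Etv5 were lost without any of them (adjusted p up to 0.148 and 0.151). Without WT clone 3, the calls of Col18a1, Actn3, Tbx15, Tspan15, Id2, Fzd4, Epha7, Ccne1 and Adgrl2 were also lost (adjusted p of 0.0859, 0.0958, 0.0696, 0.120, 0.121, 0.136, 0.110, 0.120 and 0.0958), and the same calls were lost without KO clone 1 (0.0796, 0.107, 0.0974, 0.0634, 0.134, 0.139, 0.0889, 0.107 and 0.0889). The calls of Tspan15, Fzd4, Epha7, Id2, Adgrl2 and Ccne1 were lost without WT clone 1 (0.0536, 0.0998, 0.0660, 0.0516, 0.0562 and 0.0697), those of Tspan15 and Id2 without WT clone 2 (0.0555 and 0.0641), and those of Actn3, Fzd4, Epha7, Id2, Tbx15 and Ccne1 without KO clone 2 (0.0738, 0.107, 0.0601, 0.109, 0.0825 and 0.0944). With clone as a block, all 15 were called.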

How the results depend on the processing

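The count of 1673 genes called in naive cells ranged from 708 to 1737 when 1 naive library was left out, and was 2516 with DESeq2. Higher calls ranged from 333 to 681, lower calls from 375 to 1056 with 1398 by DESeq2, and calls of 2-fold or more from 538 to 1157. With RLE or upper quartile scaling, the 6 naive libraries alone, no low-count filter or limma-voom, these 4 counts stayed within 1.5 times. The replicate block by number gave 1608 naive calls. These numbers do not pair the naive WT and KO clones. The interaction count of 69 ranged from 10 to 122 without 1 naive library, and was 564 without the low-count filter, 516 with DESeq2, 30 with the replicate block by number and 228 with the replicate block by clone, which pairs the naive and the EpiLC libraries. The causes were not tested. The fall of Pcbp1 was called under each alternative (adjusted p of 0.00610 to 0.0272 without 1 naive library). Of 218 named genes called apart from Pcbp1, 216 were called with RLE, 218 with upper quartile scaling, 198 with limma-voom, 217 with DESeq2, 189 with the 6 naive libraries alone and 203 with the replicate block. Without KO clone 1, 134 were called, and 122 were called in every fit that left out 1 naive library. Of the named genes, only Nova1, not called, changed sign (0.11; -0.0353 to 0.22 when 1 naive library was left out, with -0.00915 without WT clone 3). At the depth of these libraries, genes under 1 CPM rest on few counts and their folds are imprecise.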
